A study of Mus musculus with 28 samples.

Results

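Neuropeptide genes of the cerebral cortex were followed in mice with a gene deleted in astrocytes and in their controls. The 10 genes were taken by name and matched to Ensembl identifiers with the GRCm38 annotation, out of 53342 identifiers in the count tables. They encode the precursors of neuropeptide Y (Npy), somatostatin (Sst), vasoactive intestinal peptide (Vip), cholecystokinin (Cck), substance P and neurokinin A (Tac1), the enkephalins (Penk), the dynorphins (Pdyn), corticotropin-releasing hormone (Crh), cortistatin (Cort) and pituitary adenylate cyclase-activating polypeptide (Adcyap1). All 10 were counted in each of the 28 libraries.

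The cKO mice carried mGFAP-Cre and loxP-flanked alleles (loxP/loxP) of the targeted gene on a C57BL/6J background, so that deletion followed the activity of a Gfap promoter fragment. The Ctrl mice of the bulk experiments were littermates with loxP/loxP or loxP/+ alleles and no Cre, matched for sex. Bulk cortex was sequenced at postnatal day 17 (P17) and at P24, with 4 cKO and 4 Ctrl mice at each age. Translating ribosome affinity purification (TRAP-Seq) was done at P24 on the cortex of 3 cKO and 3 Ctrl mice, in which mGFAP-Cre switched on ribosomal protein L10A fused to EGFP. Each of these mice gave an Input library of the homogenate and an IP library of RNA pulled down with the tagged ribosomes. The TRAP-Seq Ctrl mice had loxP/loxP or loxP/+ alleles as well; how they differed from the cKO mice in the Cre they carried is not stated in the sources used here.

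Neuropeptides are made as precursors, cut and amidated along the secretory pathway, stored in dense-core vesicles and released on sustained activity to act on G protein-coupled receptors. In the cortex, Sst, Vip, Npy, Cort and Tac1 mark classes of GABAergic interneurons, Cck is made by interneurons and by many pyramidal cells, and Adcyap1 mainly by excitatory cells. Penk, Tac1 and Pdyn are also transcribed at high levels in the projection neurons of the striatum, which lies directly beneath the cortex.

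In GRCm38, the interneuron peptide genes lay as Npy (ENSMUSG00000029819) at chr6:49822710-49829507 on the plus strand, Sst (ENSMUSG00000004366) at chr16:23889573-23890958 on the minus strand, Vip (ENSMUSG00000019772) at chr10:5639218-5647617 on the plus strand and Cort (ENSMUSG00000028971) at chr4:149125034-149126763 on the minus strand. The opioid and tachykinin genes were Tac1 (ENSMUSG00000061762) at chr6:7554879-7565834 on the plus strand, Penk (ENSMUSG00000045573) at chr4:4133531-4138819 on the minus strand and Pdyn (ENSMUSG00000027400) at chr2:129686565-129699844 on the minus strand. The remaining genes were Cck (ENSMUSG00000032532) at chr9:121489824-121495694 on the minus strand, Crh (ENSMUSG00000049796) at chr3:19693401-19695396 on the minus strand and Adcyap1 (ENSMUSG00000024256) at chr17:93199017-93206537 on the plus strand.

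Sst and Cort are related genes, and the coding bases for the end of their precursors, which hold the cyclic peptides, are close enough to ask whether reads could be shared. The last 42 coding bases before the stop codon are shown 5′ to 3′ on the gene's strand in GRCm38. Capitals mark bases that are identical when the Sst bases are shifted by 3 against those of Cort.
Sst, chr16:23889732-23889773, minus strand: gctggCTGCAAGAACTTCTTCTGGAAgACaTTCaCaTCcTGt
Cort, chr4:149125267-149125308, minus strand: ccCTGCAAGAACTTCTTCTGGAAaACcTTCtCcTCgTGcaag
At that shift 31 of 39 bases matched, or 79.5%. Over the whole transcripts of 721 and 677 bases, the longest exact stretch the genes had in common was 21 bases.

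Transcription of several peptide precursors responds to cAMP through the site TGACGTCA, so the 250 bases before each RefSeq start in GRCm38.p6 were searched for it and for its shorter forms TGACG and CGTCA, which together cover both strands and which the full site contains. Promoter windows were on hand for 8 of the 10 genes (all but Penk and Crh). The full site lay in the Sst window, starting 48 bases before the start, and in 1.55% of all 32851 windows. A short form was found for 6 of the 8 genes, and in 17.8% of all windows. The 100 bases before the RefSeq start are shown for these 6, with the matches in capitals. For Sst and Tac1 that start lies inside the gene span given above, and so do the bases shown.
Sst, chr16:23890845-23890944, minus strand: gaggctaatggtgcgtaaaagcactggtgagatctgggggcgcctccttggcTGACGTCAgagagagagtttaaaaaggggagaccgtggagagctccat
Cort, chr4:149126764-149126863, minus strand: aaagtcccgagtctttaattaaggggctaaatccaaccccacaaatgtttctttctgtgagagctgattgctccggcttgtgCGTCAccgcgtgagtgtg
Cck, chr9:121495695-121495794, minus strand: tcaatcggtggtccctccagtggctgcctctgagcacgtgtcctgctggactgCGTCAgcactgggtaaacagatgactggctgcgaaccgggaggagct
Tac1, chr6:7554961-7555060, plus strand: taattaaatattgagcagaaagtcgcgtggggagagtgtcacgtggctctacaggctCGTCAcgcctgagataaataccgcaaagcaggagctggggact
Vip, chr10:5639118-5639217, plus strand: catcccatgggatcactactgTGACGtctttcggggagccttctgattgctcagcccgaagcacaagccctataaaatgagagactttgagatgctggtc
Adcyap1, chr17:93198917-93199016, plus strand: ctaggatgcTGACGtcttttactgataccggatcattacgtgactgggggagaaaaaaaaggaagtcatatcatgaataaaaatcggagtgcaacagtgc
The windows of Npy and Pdyn held neither form. These matches describe the letters only; no binding was measured.

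Reads counted on genes ran from 8855488 to 14575306 in the bulk libraries and from 18433087 to 27242445 in the TRAP-Seq libraries. Levels are given as CPM, the reads of a gene relative to the TMM-scaled total of its library. Differences are log2 fold changes from edgeR's quasi-likelihood test, and a gene was called where its Benjamini–Hochberg adjusted p, taken over the whole table, was under 0.05. The Input library of cKO replicate 1 stood apart from the other 5 Input libraries, with summed CPM of the 10 genes at 754 against 360.5 to 519, and of 8 excitatory neuron genes at 1898 against 2612 to 3459.6. Markers of striatal neurons (Drd1, Drd2, Adora2a, Ppp1r1b, Rgs9, Six3 and Gpr6) were present in every library labelled cortex. Their summed CPM ran from 82.8 to 395 in bulk, from 745 to 1075 in Input and from 255 to 381 in IP libraries. The largest part of the Input sum was Ppp1r1b, at 554 to 799 CPM in Input and 45.4 to 173 in bulk libraries. Input values of Drd1, Drd2, Rgs9 and Gpr6 overlapped with bulk values, while those of Adora2a and Six3 lay above them.

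Per kilobase of exon, Sst, Cck, Npy and Penk were the highest of the 10 genes in all bulk groups. Exon length was that of all annotated exons of a gene pooled, not of the transcripts expressed, which limits the ranking. Sst (169 ± 9.82 CPM per kb, SD, n = 4), Cck (146 ± 9.38) and Npy (115 ± 4.43) led in the P24 Ctrl mice, each separated from the next without overlap. Penk followed at 53.7 ± 16.8 and was separated from the lower 6 genes. Pdyn (4.78 ± 0.900), Vip (4.41 ± 0.309), Cort (3.73 ± 0.744) and Tac1 (3.17 ± 0.855) each overlapped with the next in that order. Adcyap1 (2.09 ± 0.245) overlapped with Crh (1.98 ± 0.522). It lay narrowly under Tac1 without overlap, at most 2.28 against at least 2.30 CPM per kb. Sst stood above Cck without overlap in both P17 groups too, whereas their ranges overlapped in the P24 cKO mice, at 154 ± 6.69 and 155 ± 12.6 CPM per kb. Crh and Cort rested on few reads, between 9 and 45 per bulk library.

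Which neuropeptide genes changed in the cKO cortex at P24 was asked first. None of the 10 passed the test, where 1.72% of 22495 genes did, and DESeq2 called none either; 2 of the 10, Cort and Sst, had an unadjusted p under 0.05, as did 13.1% of genes. The same 2 genes had lower values in all 4 cKO mice than in all 4 Ctrl mice, a pattern that 3.41% of genes showed. The median log2 fold change of the 10 was −0.15, against 0.00 over all genes.

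Cort, which encodes cortistatin, a relative of somatostatin that binds somatostatin receptors, had the largest estimate. Its values were 2.65, 3.02, 2.63 and 1.82 CPM in the Ctrl mice and 1.82, 0.716, 1.46 and 1.72 in the cKO mice. The highest cKO library and the lowest Ctrl library differed only in the third decimal. The log2 fold change was −0.80 (SE 0.26, 95% confidence interval −1.38 to −0.23), with an adjusted p of 0.189 by edgeR, and leaving out single libraries gave −0.94 to −0.60. In bulk cortex, fewer cells of a type and less RNA per cell cannot be told apart.

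Sst, the marker of a large class of dendrite-targeting interneurons, was at 118, 121, 132 and 117 CPM in Ctrl and at 105, 115, 111 and 115 CPM in cKO mice at P24. The gap between the groups was small, a log2 fold change of −0.13 (SE 0.06, interval −0.25 to −0.01) with an adjusted p of 0.330 by edgeR.

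The other interneuron peptides were less separated. Npy was at 66.0, 61.4, 67.2 and 65.2 CPM in Ctrl and at 53.0, 78.3, 62.3 and 69.4 in cKO mice, so that the cKO values lay on both sides of the Ctrl values. Vip was at 14.8, 16.1, 13.7 and 15.5 CPM in Ctrl and at 16.6, 13.5, 15.9 and 18.5 in cKO mice. Cck, which is also made by pyramidal cells, was at 190.4 ± 12.2 CPM in Ctrl and 202 ± 16.5 CPM in cKO mice (SD, n = 4 each). Their intervals of the log2 fold change ran from −0.20 to 0.23 for Npy, from −0.10 to 0.32 for Vip and from −0.06 to 0.23 for Cck. Adcyap1 (−0.43 to 0.08) and Crh (−0.76 to 0.25), the precursor of the stress-axis releasing hormone, had wider intervals that also held 0.

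**Figure D1:**
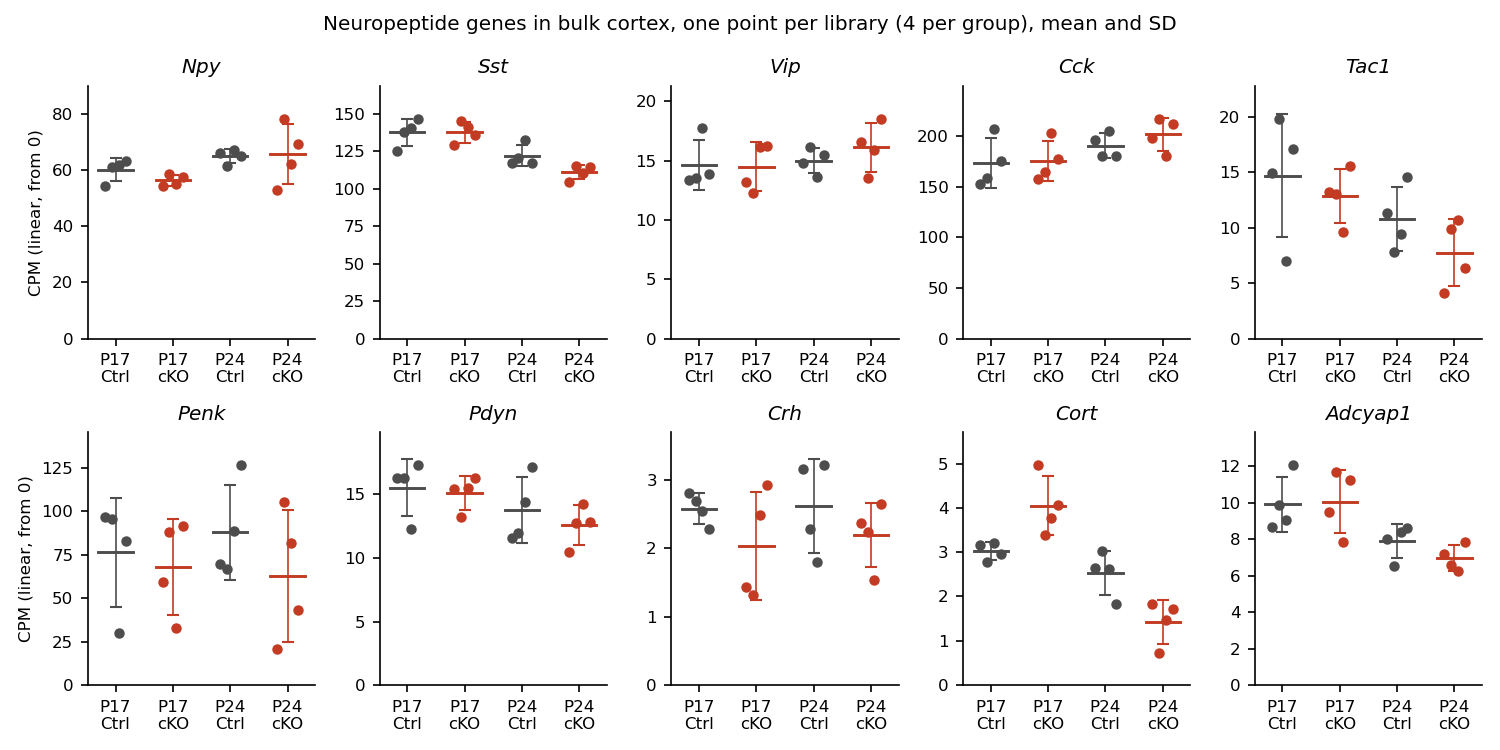
CPM (linear axis from 0) of each gene in each bulk library, with grey points for Ctrl and red points for cKO mice, a line for the group mean and bars for the SD (4 libraries per group; each age was scaled within its own table). Cort lies lower in cKO than Ctrl mice at P24 and higher at P17, and the Penk values range from 20.9 to 126 CPM at P24.

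At P17, the same comparison again called none of the 10 by edgeR or DESeq2, where 0.0943% of 21201 genes were called, and the sole gene with an unadjusted p under 0.05 was Cort, where 4.0% of genes had one. With the replicate number as a block, none of the 10 was called either, while the count over all genes went from 20 to 109. Here Cort was higher in the cKO mice. It was at 3.16, 2.78, 3.21 and 2.96 CPM in Ctrl and at 4.96, 3.39, 3.78 and 4.07 in cKO mice, without overlap, which 1.74% of genes showed in that direction. The log2 fold change was 0.42 (SE 0.17, interval 0.05 to 0.79) with an adjusted p of 1.00 by edgeR.

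An interaction term tested the opposite signs of Cort at P17 and P24. The difference of the log2 fold changes was −1.22 (SE 0.31, interval −1.88 to −0.57), with an unadjusted p of 0.000942 and an adjusted p of 0.308 by edgeR, so it did not pass over all genes. The interaction called 0.047% of 23395 genes, and none of the 10 by edgeR or DESeq2; Cort was the only member with an unadjusted p under 0.05, where 6.32% of genes had one. Each age was deposited as its own table, so age and table cannot be told apart.

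Sst did not follow Cort at P17. It was at 125, 138, 141 and 147 CPM in Ctrl and at 129, 145, 141 and 136 CPM in cKO mice, with a log2 fold change of 0.00 (interval −0.14 to 0.14). The interval of Npy ran from −0.23 to 0.05. Those of Cck (−0.20 to 0.24), Vip (−0.28 to 0.26) and Adcyap1 (−0.29 to 0.35) were wider. Crh was at 2.81, 2.68, 2.55 and 2.27 CPM in Ctrl and at 1.43, 1.31, 2.48 and 2.92 in cKO mice, with 2 cKO libraries low and 2 within or above the Ctrl range.

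**Figure D2:**
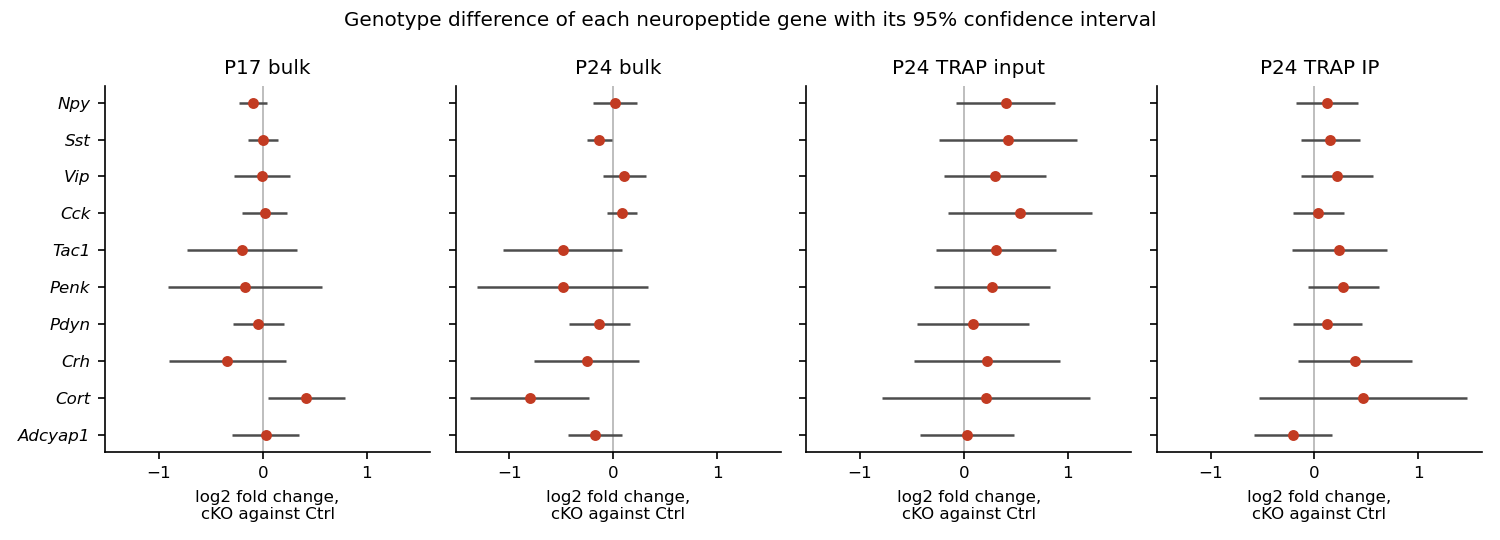
Log2 fold change of cKO against Ctrl (points) with its 95% confidence interval (lines) for each gene, in P17 bulk, P24 bulk, TRAP-Seq Input and TRAP-Seq IP libraries. The intervals of Cort exclude 0 in both bulk panels, on opposite sides (0.42 and −0.80), and those of all 10 genes hold 0 in the TRAP-Seq panels; no gene passed the adjusted threshold.

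Penk varied widely among mice of a group. At P24, Penk was at 69.5, 66.9, 88.3 and 126 CPM in Ctrl and at 20.9, 105, 81.7 and 43.4 CPM in cKO mice. At P17 it was at 96.4, 95.4, 30.0 and 83.0 CPM in Ctrl and at 59.4, 88.2, 32.7 and 91.3 CPM in cKO mice. The low libraries were cKO replicates 1 and 4 at P24 and replicate 3 of either genotype at P17. The log2 fold changes of −0.49 (SE 0.38) at P24 and −0.17 (SE 0.34) at P17 were within this spread.

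The summed striatal markers were low in those same libraries. They came to 82.8 and 148 CPM in cKO replicates 1 and 4 at P24, against 206 to 395 in the other 6 libraries. In replicate 3 at P17 they came to 107 in Ctrl and 119.7 in cKO mice, against 282 to 359.9 in the other 6. For each 100 CPM of these markers, Penk had between 21.1 and 34.0 CPM in all 16 bulk libraries, both genotypes and both ages included. In the TRAP-Seq Input libraries, where Ppp1r1b was higher than in all bulk libraries, Penk had 9.45 to 14.3 CPM per 100. The part of the markers in the values of Penk was not tested. Reads of Penk and of A830012C17Rik, which share 233 exonic bases on opposite strands, may not be separated, since the strand setting of the counting is not given in the sources used here.

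Tac1 moved with Penk. It was at 11.3, 7.80, 9.45 and 14.6 CPM in Ctrl and at 4.11, 9.87, 10.6 and 6.36 CPM in cKO mice at P24, with the lowest values again in cKO replicates 1 and 4. At P17 the lowest values, 6.98 and 9.60 CPM, were those of replicate 3 of each genotype. Its log2 fold changes were −0.49 (SE 0.26, interval −1.06 to 0.09) at P24 and −0.20 (SE 0.24, interval −0.73 to 0.33) at P17. Pdyn spanned a narrower range, from 10.5 to 17.3 CPM over the 16 libraries. Its intervals were −0.43 to 0.16 at P24 and −0.29 to 0.20 at P17.

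**Figure D3:**
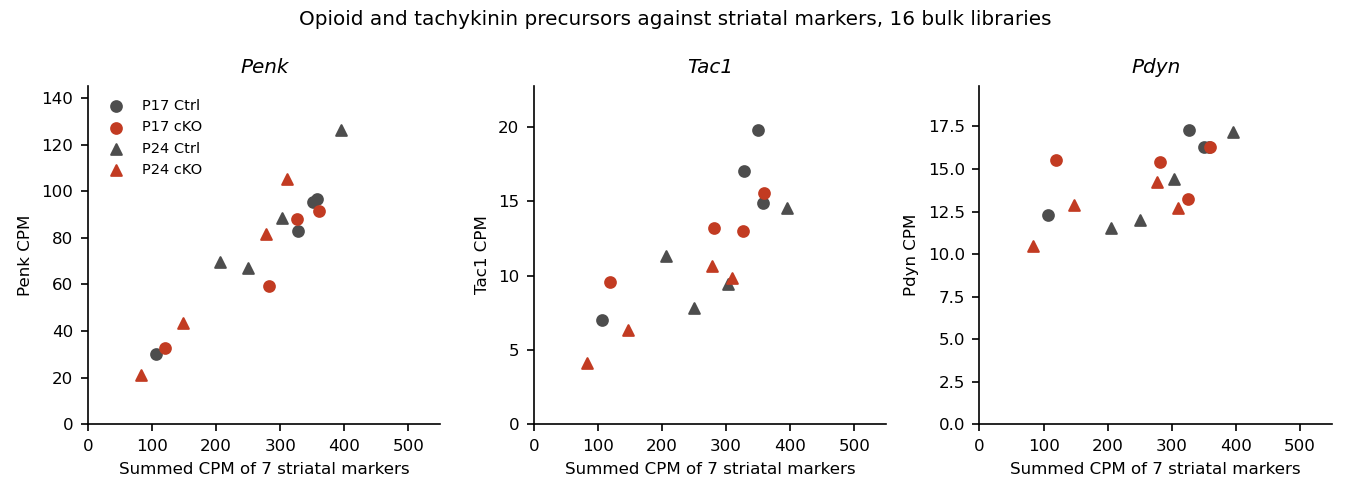
CPM of Penk, Tac1 and Pdyn (vertical axes, linear from 0) against the summed CPM of 7 striatal markers (horizontal axis) in the 16 bulk libraries, with circles for P17, triangles for P24, grey for Ctrl and red for cKO. Penk runs from 20.9 CPM at a marker sum of 82.8 to 126 CPM at a sum of 395, and Pdyn spans only 10.5 to 17.3 CPM.

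The genes whose levels followed each member most closely were found from log2 CPM over the 16 bulk libraries after the group means were removed, among 15124 genes with a mean of at least 5 CPM. For Penk these were Adora2a (Pearson's r = 0.98), 1700003D09Rik (0.98) and Drd2 (0.98), where Adora2a and Drd2 encode the adenosine and dopamine receptors of enkephalin-producing striatal neurons. For Tac1 they were Mppe1 (0.95), Dlx6 (0.95) and Penk itself (0.92). For Pdyn they were Adgrg1 (0.89), Ppp2r2a (0.84) and Rem2 (0.84). Drd2 and Adora2a are among the striatal markers summed above, and all points share library and depth. 1700003D09Rik overlaps Ppp1r1b, another of those markers, on the opposite strand, so its counts may hold reads of Ppp1r1b.

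The interneuron and pyramidal peptides had other neighbours. Those of Npy were Gm36964 (0.94), Gm8762 (0.90) and Sccpdh (0.90), those of Sst were Pdss2 (0.90), Gm47021 (0.90) and Smad3 (0.88), and those of Vip were Ppp3r1 (0.90), Wdr92 (0.89) and Apmap (0.86). Cck went with Rab6a (0.90), Pak1 (0.89) and Prkar1b (0.89), and Adcyap1 with Fndc10 (0.85), Gm40466 (0.84) and Rpl21-ps8 (0.83). Rpl21-ps8 overlaps Mbp on the opposite strand, so its counts may hold reads of Mbp. All neighbours here and above were picked as the highest of 15124 genes. Their values are raised by that selection, and none was tested. Among the members, the highest correlations were those of Penk and Tac1 (0.92), Tac1 and Pdyn (0.74), Npy and Sst (0.65), Penk and Pdyn (0.65) and Sst and Cck (0.54). Vip and Cck each ran against Penk (−0.62 and −0.50) and against Tac1 (−0.54 and −0.52). Crh and Cort were under the limit of 5 CPM and have no neighbours here.

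From P17 to P24 in the Ctrl mice, none of the 10 genes passed the test by edgeR or DESeq2, where 19.6% of 22215 genes did; 3 had an unadjusted p under 0.05, where 32.9% of genes had one. Age and deposited table cannot be told apart here. Those were Sst, from 138 ± 8.95 to 122 ± 7.08 CPM (log2 fold change −0.15, SE 0.06), Npy, from 60.2 ± 4.02 to 65.0 ± 2.51 CPM (0.14, SE 0.06), and Adcyap1, from 9.93 ± 1.51 to 7.89 ± 0.927 CPM (−0.30, SE 0.13), with n = 4 in each group. Adcyap1 alone had ranges that did not overlap, lower at P24, as 13.8% of genes did. Sst passed (adjusted p = 0.0334 by edgeR) without Ctrl replicate 1 of P17, and Cck (0.0334) and Tac1 (0.0287) without Ctrl replicate 3.

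Other genes of the peptide system are given beside the 19.6% of all genes called between these ages. Of 19 receptor genes tested, Npy1r (log2 fold change 0.26) and the δ-opioid receptor gene Oprd1 (0.33) were higher at P24, and the somatostatin receptor gene Sstr1 (−0.33) was lower. The list of receptor genes, here and below, also holds Crhbp, which encodes a binding protein of corticotropin-releasing hormone and not a receptor. Of 13 other neuropeptide precursors tested, Cartpt (−0.71), Grp (−0.60), Nts (−1.13) and Pnoc (−0.37) were lower at P24 and Agrp (0.21) was higher. The annotated span of Agrp overlaps Ctcf and Ripor1 on the opposite strand, so its counts may hold reads of those genes. Of 13 genes for peptide processing and dense-core vesicles, Scg3 (−0.30), Chga (−0.26) and Chgb (−0.23) were lower, and Pcsk1n (0.31) and Vgf (0.26) higher. Of 19 interneuron genes, Nos1 (0.41), Gad1 (0.58) and Dlx2 (0.74) were higher and Sox6 (−0.37) was lower. DESeq2 called 2 of the receptor genes and 4 of the other precursors.

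By genotype, few genes of the peptide system passed the test in bulk cortex at P24, where 1.72% of all genes passed and 13.1% had an unadjusted p under 0.05. None of 19 receptor genes did by edgeR, 1 did by DESeq2, and 4 had an unadjusted p under 0.05, among them the κ-opioid receptor gene Oprk1 at 5.70 ± 1.34 CPM in cKO and 8.11 ± 0.698 in Ctrl mice. Cartpt, which encodes the precursor of cocaine- and amphetamine-regulated transcript peptides, fell by 1.14 (SE 0.22, adjusted p = 0.0219 by edgeR), from 3.74 ± 0.637 to 1.69 ± 0.519 CPM (n = 4 each). It was the sole one of 13 other precursors tested that passed. Scg3, which encodes a granin of dense-core vesicles, rose by 0.24 (SE 0.05, adjusted p = 0.0313 by edgeR), from 147 ± 6.46 to 173 ± 5.68 CPM. At P17 no receptor, other precursor or processing gene passed by edgeR or DESeq2, and 1 processing gene had an unadjusted p under 0.05.

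Genes of GABAergic interneurons, the cells in which many of the 10 peptides are made, were read beside them. At P24, 1 of 19 tested passed by edgeR, where 1.72% of 22495 genes did. DESeq2 called 4, and 598 over all genes. The gene that passed by edgeR was Adarb2, which marks interneurons of the caudal ganglionic eminence and fell by 0.40 (SE 0.07, adjusted p = 0.0157 by edgeR). Adarb2 was also higher in IP than in Input libraries of Ctrl mice (log2 fold change 1.37), and the cells behind its fall were not tested. Of the 19 genes, 10 had an unadjusted p under 0.05, where 13.1% of all genes had one. The median log2 fold change of that list was −0.19. Dlx1 (−0.79, adjusted p = 0.0897 by edgeR), Dlx2 (−0.78, 0.0996) and Calb2 (−1.25, 0.108), which did not pass, had wide spreads in Ctrl mice, at 25.2 ± 14.5 CPM for Calb2. The median of the striatal markers in the same comparison was −0.64, with none of 7 called by edgeR or DESeq2 and none at an unadjusted p under 0.05. Dlx6, a gene of the interneuron list, followed Tac1 closely over the bulk libraries (Pearson's r = 0.95). The part of striatal tissue in the values of the interneuron list was not tested. At P17 no interneuron gene was called by either tool or had an unadjusted p under 0.05. Of 12 activity-induced genes at P24, Fosb fell by 0.69 (SE 0.15, adjusted p = 0.0461 by edgeR) and no other passed. Of those 12, 5 had an unadjusted p under 0.05, where 13.1% of all genes had one, and the median of the 12 was −0.32. At P17 none of the 12 was called by edgeR or DESeq2, and their median was 0.08. There 1 had an unadjusted p under 0.05, where 4.0% of all genes had one.

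How much peptide-gene RNA came down with the tagged ribosomes was read by comparing IP with Input libraries. In Ctrl mice 9 of the 10 genes were lower in IP, where 35.7% of 24385 genes were, and the median log2 fold change of the 10 was −1.42, against −0.03 over all genes. In cKO mice 9 of the 10 were lower too, where 28.5% of 24011 genes were, with a median of −1.52. The IP values of those 9 genes also lay under all Input values of the same genotype, as for 37.2% of genes in Ctrl and 31.8% in cKO mice. The exception in both was Crh, at −0.60 (SE 0.26, adjusted p = 0.0575 by edgeR) in Ctrl and −0.43 (SE 0.29, adjusted p = 0.245) in cKO mice. Without IP replicate 2, Crh passed in Ctrl mice (−0.79, adjusted p = 0.0259 by edgeR). The median of 5 astrocyte markers was 3.95 in Ctrl mice and that of 6 pan-neuronal genes was −1.64.

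Depletion differed in size among the members. Cort was at 2.45, 2.56 and 2.62 CPM in the Input and at 0.640, 0.340 and 0.352 CPM in the IP libraries of Ctrl mice, a log2 fold change of −2.51 (SE 0.29). Npy was at 39.5, 45.3 and 39.4 CPM in Input and 9.60, 10.7 and 10.1 CPM in IP libraries (−2.05, SE 0.11). In each Ctrl mouse the IP level of Npy was between 23.5% and 25.6% of the Input level, the narrowest range among the 10. Penk (−1.80, SE 0.22), Pdyn (−1.57, SE 0.20), Sst (−1.45, SE 0.14) and Tac1 (−1.39, SE 0.20) lay between. Vip (−1.07, SE 0.14), Cck (interval −1.32 to −0.68) and Adcyap1 (−0.91, SE 0.15) were the least depleted of the genes called. Cck kept between 46.3% and 56.2% of its Input level in the IP of the same Ctrl mouse, and was the most abundant member per kilobase of exon there, at 53.0 ± 6.69 CPM per kb (n = 3).

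In cKO mice the percentages were shaped by Input replicate 1. There the IP level of Npy was 14.0% of Input in replicate 1 and 24.1% and 25.2% in the others, that of Tac1 was 21.3% against 54.6% and 44.2%, and that of Cck was 22.3% against 48.7% and 50.4%. Without that Input library 9 of the 10 genes were still called lower in IP. The log2 fold change of Cort moved from −2.26 to −1.50 without it.

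**Figure D4:**
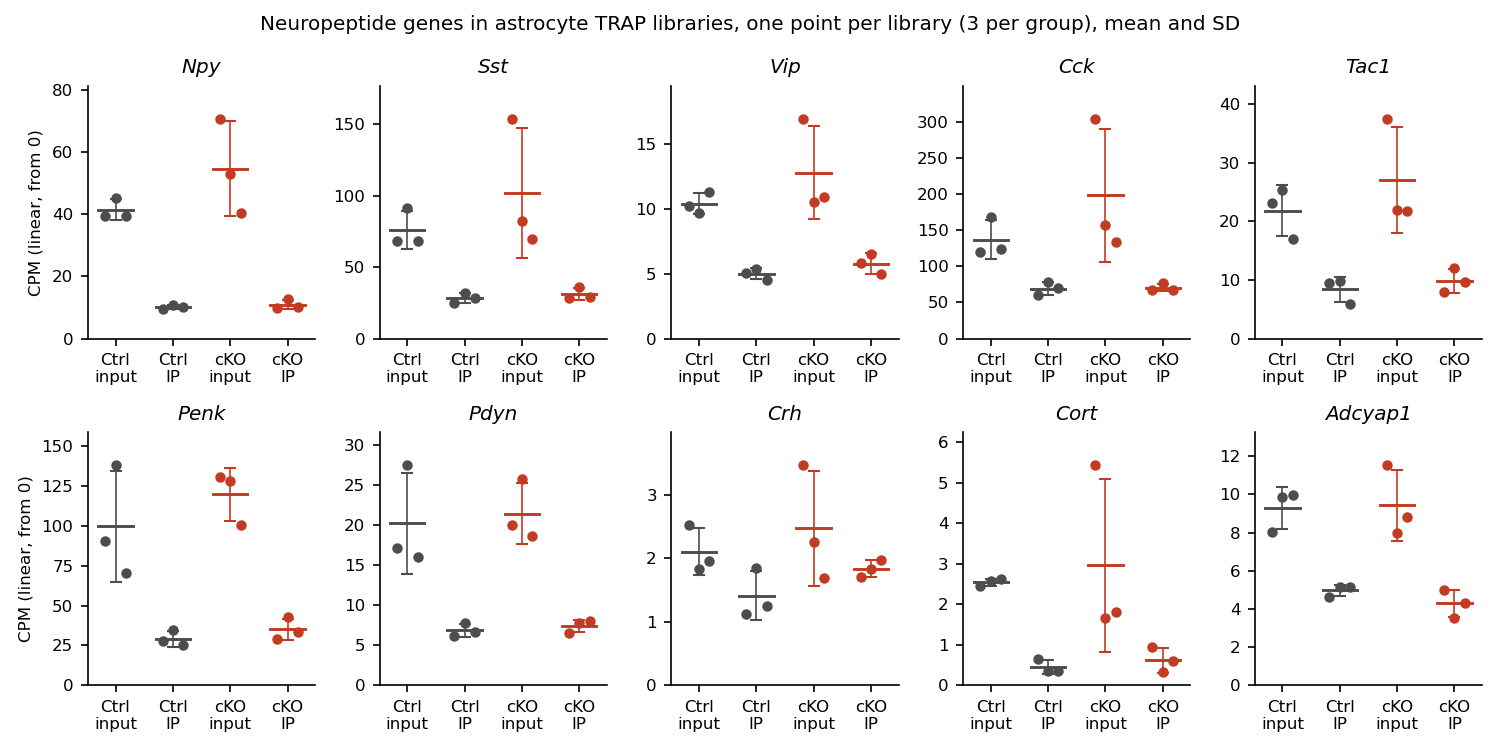
CPM (linear axis from 0) of each gene in Input and IP libraries of Ctrl (grey) and cKO (red) mice at P24, with a point per library, a line for the group mean and bars for the SD (3 libraries per group). IP values lie under all Input values of the same genotype for 9 genes and overlap with them for Crh; Input replicate 1 of the cKO mice is the highest Input point for Npy, Sst, Vip, Cck, Tac1, Crh, Cort and Adcyap1.

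Receptor, processing and other precursor genes were read in the same comparison, in which 35.3% of all genes were higher and 35.7% lower in IP. Of 18 receptor genes tested in Ctrl mice, 14 were lower in IP, among them Oprd1 (−2.71), Vipr1 (−2.55), Cckbr (−2.32) and Crhr1 (−2.11). Adcyap1r1, which encodes the receptor for the Adcyap1 peptide, was the sole receptor gene higher in IP (0.55, SE 0.15, adjusted p = 0.00732 by edgeR), at 108 ± 18.5 CPM against 73.1 ± 13.0 in Input libraries (n = 3 each). Of 13 processing and vesicle genes, 10 were lower in IP, such as the vesicle protein genes Vgf (−3.06), Chgb (−2.42), Cadps2 (−1.59) and Cadps (−1.51). The other 3, Scg3 (2.73), the carboxypeptidase gene Cpe (2.08) and the amidating enzyme gene Pam (0.48), were higher. Adarb2 (1.37), Sox6 (1.28) and Dlx2 (0.39) were likewise higher in IP, whereas 14 of 20 interneuron genes were lower, such as Pvalb (−2.62), Reln (−2.36) and Lhx6 (−2.05). Of 14 other precursors tested, 8 were lower, among them Cartpt (−2.06), Pnoc (−1.96) and Tac2 (−1.86), and 1 was higher; DESeq2 called 7 lower and none higher.

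Between genotypes in the IP libraries, none of the 10 genes passed by edgeR or DESeq2, where 20.0% of 23864 genes passed, and none had an unadjusted p under 0.05, where 33.7% did. Their median log2 fold change was 0.19, against −0.01 over all genes. Penk was at 27.4, 34.6 and 25.2 CPM in Ctrl and at 29.2, 42.5 and 33.5 CPM in cKO mice; the groups overlapped (0.28, SE 0.15, adjusted p = 0.237 by edgeR). With the replicate number as a block Penk was called (0.27, adjusted p = 0.0464 by edgeR), although the numbers were not shown to pair these mice. Cck was at 60.3, 77.7 and 69.5 CPM in Ctrl and at 67.7, 76.8 and 67.3 CPM in cKO mice, with an interval of −0.21 to 0.28. Sst (−0.13 to 0.44) and Npy (−0.18 to 0.42) had intervals of similar width, and Cort, with 7 to 22 reads per library, had the widest (−0.53 to 1.47).

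Some of the other precursors were called in IP by genotype, where 20.0% of 23864 genes were called by edgeR. Of 15 tested, Adm, which encodes adrenomedullin, rose by 2.19 (SE 0.28) from 0.534 ± 0.0401 to 2.43 ± 0.577 CPM (n = 3 each), and Rln1 (2.84), Nmb (1.24) and Agrp (0.45) also rose. Trh, the precursor of thyrotropin-releasing hormone, fell by 1.80. DESeq2 called 3 of the 15 higher and none lower, where it called 5152 of 23864 genes in either direction. Nmb overlaps Sec11a on the same strand, so its reads are uncertain, as are those of Agrp. Of 18 receptor genes, Vipr2 rose by 1.23 (SE 0.33), from 0.382 ± 0.0695 to 0.899 ± 0.0851 CPM, and DESeq2 called no receptor gene. Vipr2 overlaps the antisense gene Gm20658. Of 13 processing and vesicle genes Chgb fell by 0.34. Interneuron genes moved both ways: Dlx2 (−1.20), Calb2 (−1.46), Dlx1 (−0.92), Dlx5 (−0.92) and Nos1 (−0.70) fell, while Maf (0.54) and Pvalb (0.58) rose, out of 20 tested.

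In the Input libraries none of the 10 genes differed between genotypes by edgeR or DESeq2, where 0.109% of 23828 genes were called, and none had an unadjusted p under 0.05, where 4.03% did. The estimates were positive for all 10, with a median of 0.28. For part of the genes they rested on cKO replicate 1. That library had 304 CPM of Cck, where the other 5 Input libraries had 119.6 to 168, and 154 CPM of Sst, where the others had 68.2 to 91.6. Without it the log2 fold change went from 0.54 to 0.09 for Cck, from 0.42 to −0.00 for Sst, from 0.40 to 0.18 for Npy and from 0.21 to −0.55 for Cort. That of Penk went from 0.27 to 0.20, and that of Pdyn went from 0.09 to 0.14. The interaction of fraction and genotype called 0.0582% of 25768 genes and none of the 10 by edgeR or DESeq2, and no member had an unadjusted p under 0.05, where 8.74% of genes had one.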

How the data were processed

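Raw read counts per Ensembl gene were deposited by the authors as a table for each experiment; they mapped reads to mm10 with RNA STAR in Galaxy, and the counting tool, strand setting and annotation are not given in the sources used here. The age of the bulk libraries stands in the table's name only. Symbols, positions and exonic lengths came from GENCODE M21 (GRCm38), which held 53237 of 53342 identifiers, and promoters from RefSeq (GRCm38.p6). Groups were set against each other on these counts with edgeR 4.0.16 in R 4.3.3 (TMM factors, filterByExpr with a minimum count of 10, glmQLFit and glmQLFTest, two-sided, Benjamini–Hochberg adjustment) within the groups compared. Standard errors were the log2 fold change over the square root of F; intervals cover 95%. A floor of 3 counts was 0.106 to 0.341 CPM, and covers counting error only. Alternatives were DESeq2 1.42.0, RLE factors, library size alone, 2 other filters, a replicate block, a joint fit and each library left out. The pipeline was tested on simulated data. Each library was from 1 mouse.

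Members and lists were chosen with earlier results of these data known. Named were the 10 genes, up to 4 genes per list and comparison by lowest adjusted p, and 3 neighbours per member. Named beyond that rule, after their values were seen, were Oprk1, Dlx1, Dlx2 and Calb2 in P24 bulk, Pnoc and Vgf between ages, Adcyap1r1, Vgf, Cpe, Pam, Sox6 and Dlx2 in IP against Input, and Trh, Dlx5, Nos1 and Pvalb in IP by genotype. Same-numbered libraries deviated together in P17 bulk (correlations 0.167 to 0.380 over 4 pairs), and Input and IP came from the same mouse. Over 36 replicate pairs, libraries differed beyond counting error. The check of the targeted gene and 1 striatal marker are not reported here.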

Additional observations from a re-analysis of the deposited data

Results flagged for a closer look

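Vip in P17 Ctrl replicate 3 was at 17.7 CPM, while the other 3 Ctrl libraries of that age were at 13.3 to 13.9 CPM; its gap to the nearest library was 0.875 of the group's range, above Dixon's 95% critical value for 4 samples. It was the sole library so marked in 40 groups of 4 checked for the 10 genes, and chance marks about 1 in 20 groups.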

How the results depend on the processing

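The number of the 10 genes called was the same under DESeq2, RLE factors, no filter beyond 1 count and the joint fit in each comparison in which they were run. It was also the same with at least 10 counts in every library, except in IP against Input. There that filter left out Cort, which every other setting called in both genotypes. Library size alone called 1 gene between P24 and P17 in Ctrl mice (Sst, −0.18, adjusted p = 0.0428 by edgeR), and single libraries left out gave 0 to 2. Of the log2 fold changes of single genes, 857 kept direction and side of the threshold, 34 changed direction and 6 became called. That tally held all 10 genes by genotype within an age or fraction and in IP against Input. Between ages it held only Npy, Sst, Cck and Tac1, in the age interaction only Cort, and in the fraction interaction no gene. Sst at P17 went to −0.000297 with library size alone, −0.0076 with no filter beyond 1 count and −0.000988 in the joint fit. With library size alone, Cck in IP went to −0.077 and Adcyap1 in Input to −0.020. That setting moved the median of all genes in IP to −0.13, and the calls there from 2772 higher and 2010 lower to 2002 and 3529; between ages they went from 2100 and 2252 to 1618 and 2659.

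With single libraries left out, directions turned for the following genes of that tally. At P24, Npy ran from −0.077 to 0.11. At P17 the ranges were −0.043 to 0.035 for Sst, −0.069 to 0.095 for Vip, −0.054 to 0.11 for Cck, −0.43 to 0.064 for Penk, −0.14 to 0.015 for Pdyn and −0.051 to 0.13 for Adcyap1. In IP, Cck ran from −0.057 to 0.13. In Input the ranges were −0.00068 to 0.63 for Sst, −0.058 to 0.37 for Pdyn, −0.11 to 0.43 for Crh, −0.55 to 0.50 for Cort and −0.14 to 0.14 for Adcyap1. The low ends in Input, other than that of Pdyn, were those without cKO replicate 1. The cause was not tested.

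With the replicate number as a block, 1 gene was called in IP by genotype (Penk, 0.27, adjusted p = 0.0464 by edgeR), and the block changed no other count of the 10. Same-numbered libraries correlated at 0.0286 to 0.218 in P24 bulk, 0.0364 to 0.118 in IP and −0.0336 to 0.101 in Input, and the labels give no shared litter or day for a number.

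Over all genes, calls by genotype at P24 went from 388 to 598 with DESeq2 and 618 with no filter beyond 1 count. At P17 they went from 20 to 41, 55 and, with the block, 109. In IP the joint fit called 1684 against 4782. In Input, 26 became 127 (DESeq2, joint fit), 112 (no filter), 15 (at least 10 counts in every library) and 8 (block). The age interaction went from 11 to 54, 62 and 55 (block), and the fraction interaction from 15 to 284, 189, 10 (RLE) and 6 (block). With single libraries left out, the count ran from 216 to 950 at P24 (950 without cKO replicate 1, 216 without cKO replicate 2), from 11 to 19 at P17, from 2633 (without cKO replicate 2) to 4810 in IP and from 4 to 112 in Input (112 without cKO replicate 1). It ran from 4 to 149 for the age interaction (149 without P24 cKO replicate 1) and from 3 to 432 for the fraction interaction (432 without Input cKO replicate 1). Crh and Cort rested on few reads, which limits their precision.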
